A study of Mus musculus with 36 samples.

Results

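The nuclear genes of respiratory complex I were examined in mouse heart, taking every gene symbol that begins with Nduf and leaving out pseudogene symbols that contain "-ps". The rule found 45 genes among the 23352 gene entries of the deposited tables, 38 of them carrying a subunit-type name and 7 a complex I assembly factor name (Ndufaf1 to Ndufaf7). No Nduf symbol contained "-ps", and no gene of the mitochondrial genome that encodes a complex I subunit was among the entries. RNA came from the apex of hearts of male C57BL/6J mice aged 11 to 12 weeks, kept in 12 h of light and 12 h of dark. The cK15 hearts were labelled as knockouts of Klf15, which encodes a zinc-finger transcription factor of the Kruppel-like family. The control hearts carried the alpha-MHC cre transgene, whose promoter is active in heart muscle cells; the labels do not say which cells of the cK15 hearts lost the gene or whether those mice carried the transgene too. There were 3 libraries for every genotype and time, at intervals of 4 h from 12 am to 8 pm, which gave 18 cK15 and 18 control libraries. The sources used here do not give the clock hour at which lights went on.

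Complex I is the entry point of the respiratory chain: it oxidises NADH, passes the electrons to ubiquinone and pumps protons across the inner mitochondrial membrane. Its peripheral arm holds the N module, which binds NADH, and the Q module, which reduces ubiquinone, and its membrane arm has a proximal and a distal part. Heart muscle is among the tissues richest in mitochondria, and the complex is put together from subunits of the nuclear and the mitochondrial genome with the help of assembly factors that are not part of the finished enzyme. By known place, the 45 genes comprised 8 of the N module, 8 of the Q module, 9 of the proximal and 10 of the distal membrane arm, the mitochondrial acyl carrier protein Ndufab1, 7 assembly factors, and the pair Ndufa4 and Ndufa4l2. Ndufa4 was named as a complex I subunit and is now placed with complex IV, and Ndufa4l2 is its hypoxia-inducible paralog.

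The values were FPKM, fragments scaled to gene length and library total, and the sequencing depth behind them is unknown. The 36 libraries listed 10339 to 10829 genes at an FPKM of 1 or more. Klf15 itself was listed at 0 to 0.326 FPKM in cK15 libraries (median 0) and at 0.406 to 2.91 FPKM in control libraries (median 1.28), and the groups did not overlap. In 12 libraries, 6 of each genotype and 1 in each of the 12 groups, the share of summed FPKM in the 10 most abundant genes was 16.1 to 17.7%, against 21.7 to 25.03% in the other 24. The labels give no reason for this. Summed over 8 heart muscle cell markers, these 12 libraries reached 51920 to 62162 FPKM, and the other 24 started at 81285 FPKM. For the Nduf genes, the number called in the averaged comparison and the values of the called genes are given with and without these libraries. The neighbouring gene lists and the cell markers are given over all 36 libraries only. No pair of libraries was a duplicate (highest correlation 0.989).

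The sequences directly upstream of the Nduf genes are shown first because one gene, Ndufa11, differed more between genotypes than the rest, and because several share a word. RefSeq (GRCm38.p6) held an upstream sequence for 39 of the 45 genes. Windows of 250 bases before the annotated start were searched on both strands for words typical of factors known to act on mitochondrial genes or related to Klf15. The capitals mark the palindromic core, with 1 position left free, of the motif bound by nuclear respiratory factor 1 (NRF1), a regulator of many nuclear-encoded respiratory genes. The whole window of Ndufa11 and the 30 bases around each match in the other genes read 5′ to 3′ on the strand of the gene.
Ndufa11, chr17:56717512-56717761 (plus strand): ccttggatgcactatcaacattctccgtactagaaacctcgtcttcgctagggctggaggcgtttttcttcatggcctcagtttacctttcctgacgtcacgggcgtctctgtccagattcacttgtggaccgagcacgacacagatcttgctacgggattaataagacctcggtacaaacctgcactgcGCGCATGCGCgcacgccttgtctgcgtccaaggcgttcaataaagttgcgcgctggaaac
Ndufa5, chr6:24527697-24527726 (minus strand): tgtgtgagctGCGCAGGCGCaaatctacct
Ndufa8, chr2:36049349-36049378 (minus strand): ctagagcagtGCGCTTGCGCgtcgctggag
Ndufaf4, chr4:24897960-24897989 (plus strand): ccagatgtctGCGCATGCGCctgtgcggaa
Ndufb4, chr16:37654540-37654569 (minus strand): gagaagcagtGCGCACGCGCagaatacgcg
Ndufb4, chr16:37654428-37654457 (minus strand): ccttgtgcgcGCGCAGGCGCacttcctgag
Ndufb4, chr16:37654371-37654400 (minus strand): cctcatatccGCGCAGGCGCagatgtgcgc
Ndufs5, chr4:123718265-123718294 (minus strand): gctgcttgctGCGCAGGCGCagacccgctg
Ndufs6, chr13:73328483-73328512 (minus strand): ccgccgactgctgtGCGCCTGCGCcggcac

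The NRF1 core was present upstream of 7 of the 39 genes (17.9%), against 4.23% of all 27025 genes with such a window. In Ndufa11 it lay 60 to 51 bases upstream of the start. Its exact letters there stood in 2 of the 39 windows (5.1%), those of Ndufa11 and Ndufaf4, and in 0.877% of all. Ndufb4, a subunit of the distal membrane arm, had 3 matches. Words of the Kruppel-like and SP type did not follow this pattern: CCACCC stood upstream of 7 of the 39 (17.9%) against 30.6% of all genes, GGGCGGG of 14 (35.9%) against 25.7%, and CCCCNCCC, which can overlap both, of 13 (33.3%) against 33.3%. The word TCAAGGTCA of estrogen-related receptors was in none of the 39 windows and in 0.422% of all, CCGGAAG of ETS-type factors in 4 (10.3%) against 7.83%, and the E-box CACGTG in 2 (5.1%) against 6.86%. These counts describe letters and are no evidence of binding. They take the RefSeq starts, from which those of GENCODE M21 differ for some genes. By the GENCODE positions, the NRF1 cores of Ndufa5, Ndufa8 and Ndufs6 lie inside the gene. The same holds for the Ndufb4 cores other than that at chr16:37654540-37654569. In carriers of the core other than Ndufa11, the averaged log2 fold change (cK15 over control) was 0.020 to 0.11. Their adjusted p was 0.3269 to 0.9067 (limma). Ndufaf4, with the same letters as Ndufa11, had 0.073. Ndufab1, Ndufaf7 and Ndufs3, also called higher below, had no NRF1 core. Ndufs3 had CCACCC and GGGCGGG, and Ndufa11, Ndufab1 and Ndufaf7 had no Kruppel-like or SP type word. A link of any word to genotype was not tested.

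All 45 genes passed the filter on low values, a mean of 1 FPKM or more, and none was listed at 0 in any library. The lowest value of any member in any library was 6.52 FPKM. Together they made up 6.20 to 6.71% of a library's summed FPKM in cK15 hearts (median 6.49%) and 6.03 to 6.61% in control hearts (median 6.34%). Ndufa4 had the highest level, 5038 ± 569 FPKM in cK15 and 4756 ± 511 FPKM in control hearts (SD, n = 18 each). It was followed by Ndufb8, a distal arm subunit, with 3269 ± 445 FPKM in cK15 and 3085 ± 360 FPKM in control hearts, and by Ndufa3, a small proximal arm subunit, with 3055 ± 300 FPKM in cK15 and 3280 ± 279 FPKM in control hearts. Ndufb8 and Ndufa3 lay within 1 SD of each other. The assembly factors stood below the subunits of both arms: the lowest, Ndufaf4, averaged 9.50 ± 1.503 FPKM in cK15 and 8.97 ± 1.25 FPKM in control hearts. Next in order came Ndufa4l2 with 12.0 ± 2.31 FPKM in cK15 and 13.1 ± 2.27 FPKM in control hearts, and Ndufaf7 with 19.1 ± 1.52 FPKM in cK15 and 17.2 ± 1.72 FPKM in control hearts. Among subunits proper of the 2 arms, Ndufs5 and Ndufa11 were the lowest.

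**Figure D1:**
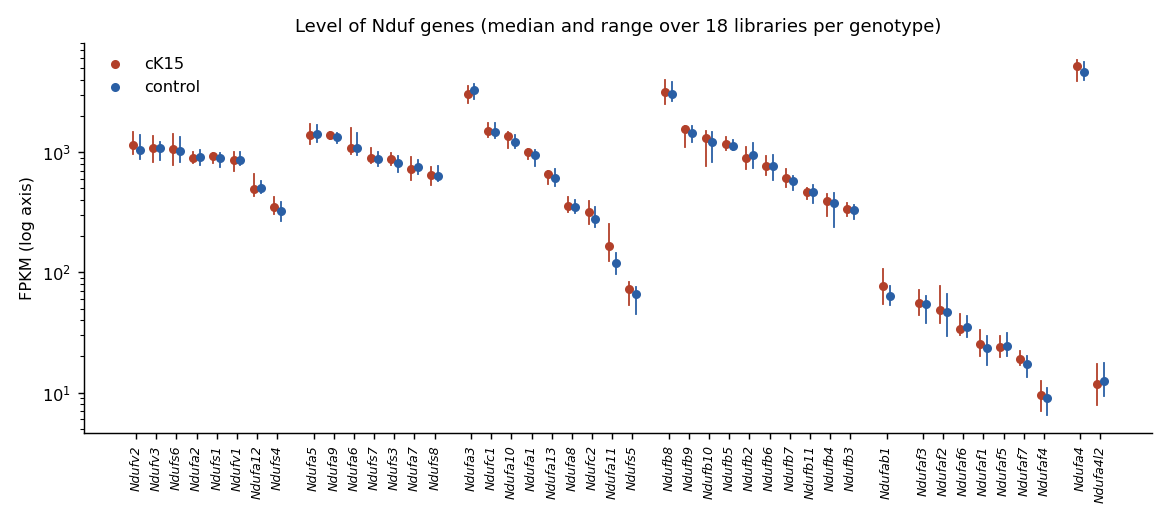
FPKM on a log axis for the Nduf genes reported by name, ordered by place in the complex and then by level, with cK15 left of control. Points are medians and lines the range over 18 libraries per genotype; the assembly factors lie below most subunits, and the ranges of the genotypes overlap for every gene shown.

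The first comparison asked whether the genes differed between cK15 and control hearts when averaged over the 6 times. Of the 45 genes, 4 rose in cK15 hearts (8.89%) and none fell, at an adjusted p under 0.05 (limma, Benjamini-Hochberg over all 10599 genes tested). They were Ndufa11, Ndufaf7, Ndufab1 and Ndufs3, from 4 different places in the list. Over all genes tested, 11.2% were called, 4.06% higher and 7.18% lower, so the members' share of calls in either direction was below that of all genes in this fit, and in several other fits it was above. Most fold changes pointed upward: 36 of 45 members (80%) had a fold change above 0, against 45.8% of all genes tested, and the median log2 fold change was 0.051 for the members and −0.012 for all genes. Without adjustment, 9 of the 45 had a p under 0.05, against 23.2% of all genes. With the replicate number as a block, 7 members rose (Ndufa11, Ndufab1, Ndufb7, Ndufc2, Ndufaf7, Ndufs3 and Ndufa10). These were 15.6% of the members, against 4.29% of all genes called higher and 11.1% called in either direction. Number 1 occurred only in cK15 and number 2 only in control hearts, so that averaged contrast rests on the libraries of numbers 3 and 4. With each replicate series as a random block, Ndufa11 alone was called (2.22%, higher). Of all genes, 0.887% were called higher and 3.26% in either direction. With the set of 12 libraries as a covariate 10 members were called (22.2%, 9 higher and Ndufa3 lower), against 20.5% of all genes (8.53% higher and 11.9% lower). In the 24 libraries outside the set 6 were called (13.3%, all higher), against 11.1% of all genes (4.42% higher and 6.66% lower). After other scalings, 4 members (8.89%) were called with median ratios, against 11.5% of all genes, 5 (11.1%) with equal sums, against 8.72%, and 7 (15.6%) with quantiles, against 11.7%. Called higher were 4, 4 and 6 members, against 5.33%, 2.57% and 5.99% of all genes. In these scalings 34 to 37 of the 45 were above 0. Without cK15 replicate 3, 25 of the 45 were above 0 and the members' median log2 fold change was 0.016; without the other replicates in turn, 30 to 37 were above 0 and the median was 0.038 to 0.080.

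**Figure D2:**
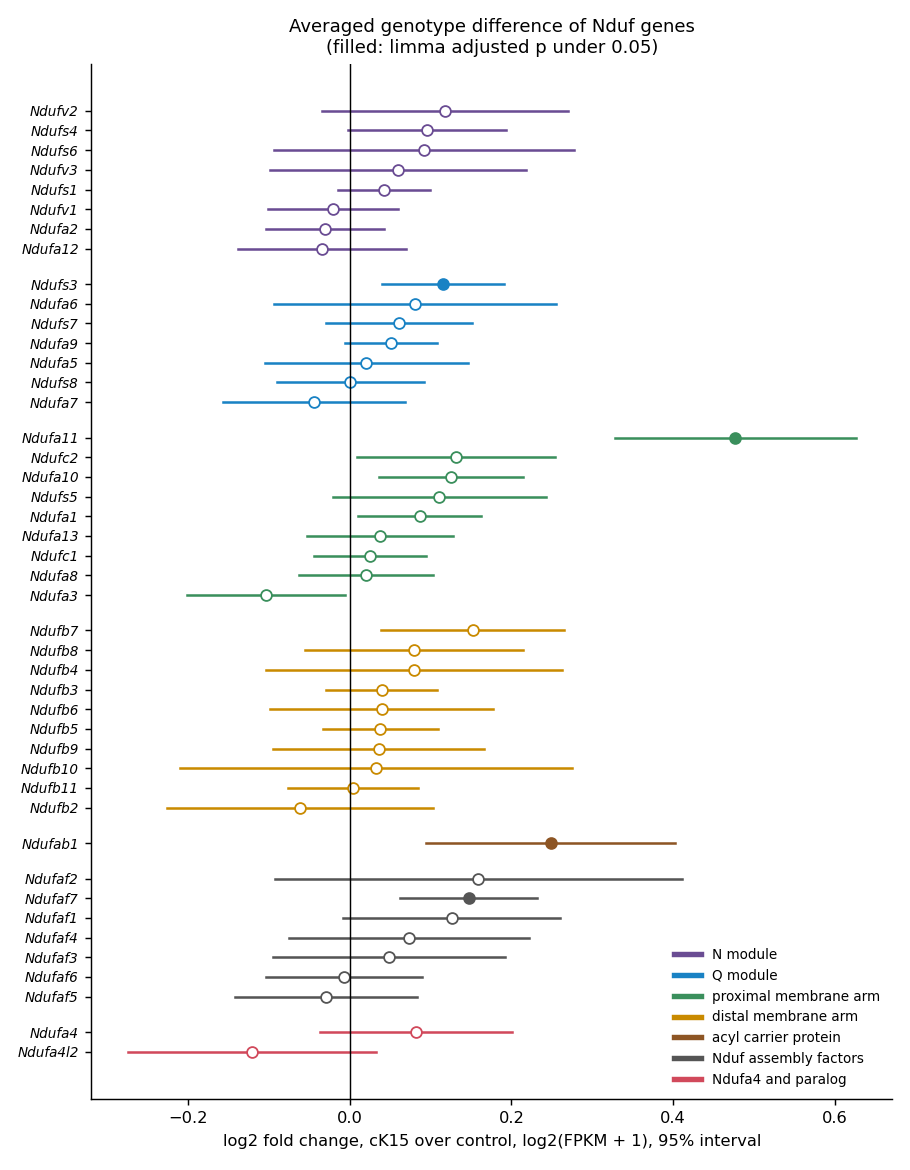
Averaged log2 fold change of the Nduf genes reported by name, cK15 over control, on the log2(FPKM + 1) scale, with its 95% interval from limma; colours give the place in the complex and filled points an adjusted p under 0.05. Ndufa11 stands at 0.48, Ndufab1, Ndufaf7 and Ndufs3 are also filled, and the other points lie between −0.12 and 0.16.

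Ndufa11, a membrane subunit of the proximal arm in which human mutations cause complex I deficiency, had the largest difference. It is encoded on chromosome 17 at chr17:56717767-56722141, plus strand (GRCm38, GENCODE M21). It reached 124, 166 and 251 FPKM in cK15 hearts (lowest, median and highest library) and 96.4, 119 and 146 FPKM in control hearts. Of the 18 cK15 libraries, 15 lay above the highest control library and 18 above the control median. The mean was 171 ± 33.2 FPKM in cK15 and 121 ± 12.3 FPKM in control hearts, and the log2 fold change was 0.48 (SE 0.073, adjusted p = 2.122e-05, limma), a 1.39-fold difference on the FPKM + 1 scale. Within the 24 libraries outside the set of 12 the log2 fold change was 0.39 (adjusted p = 0.006092), and within the set 0.65 (adjusted p = 0.001203). The call held in each of 53 alternative settings, with log2 fold changes of 0.39 to 0.54 and adjusted p of 8.417e-07 to 0.007653. Of these settings, 36 left out 1 library each, and a change of the rhythm test left this contrast as it was. In bulk heart tissue, a different number of cells of a type and a different amount of RNA per cell cannot be told apart. Its exons overlap those of Vmac on the opposite strand by 70 bases, and Vmac averaged 0.517 FPKM in cK15 and 0.386 FPKM in control hearts, far below Ndufa11.

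By time of day, the Ndufa11 libraries read 251, 124 and 178 FPKM in cK15 and 123, 112 and 146 FPKM in control hearts at 12 am. At 4 am they read 229, 181 and 180 FPKM in cK15 and 118, 113 and 137 FPKM in control hearts. The cK15 and control libraries overlapped at 12 am and did not overlap at 4 am. At 8 am the values were 149, 165 and 155 FPKM in cK15 and 119, 104 and 126 FPKM in control hearts. At 12 pm they were 166, 216 and 136 FPKM in cK15 and 122, 112 and 136 FPKM in control hearts. The groups were apart at 8 am and overlapped at 12 pm. At 4 pm the libraries held 176, 151 and 155 FPKM in cK15 and 119, 119 and 129 FPKM in control hearts. At 8 pm they held 131, 164 and 175 FPKM in cK15 and 135, 96.4 and 116 FPKM in control hearts. Every cK15 library was thus above every control library at 3 of 6 times (4 am, 8 am and 4 pm), where the same held for 4.21%, 3.91% and 4.46% of all genes; at 12 am, 12 pm and 8 pm it held for 3.5%, 4.18% and 4.74%. The log2 fold change was 0.48, 0.67, 0.43, 0.46, 0.39 and 0.43 from 12 am to 8 pm (SE 0.18 each). At no single time did it pass the threshold, the smallest adjusted p being 0.06334 at 4 am (limma). It did pass at 4 am with median ratios, with quantiles and with the set of 12 as a covariate, and at both 12 am and 4 am without cK15 replicate 3.

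Ndufab1 is the mitochondrial acyl carrier protein, which takes part in fatty acid and lipoic acid synthesis in mitochondria and is also a subunit of complex I. It reached 54.5, 77.5 and 107.5 FPKM in cK15 hearts (lowest, median and highest) and 53.7, 63.8 and 77.6 FPKM in control hearts. The groups overlapped at the lower end, and 9 of 18 cK15 libraries lay above the highest control library. The mean was 77.0 ± 14.5 FPKM in cK15 and 63.9 ± 6.69 FPKM in control hearts, a log2 fold change of 0.25 (SE 0.075, adjusted p = 0.02882, limma). The call was lost without any one of 4 of the 6 replicate series: without cK15 replicate 3 the log2 fold change was 0.11 (adjusted p = 0.3063), and without control replicate 2, 3 or 4 it was 0.25, 0.26 and 0.24 (adjusted p = 0.08058, 0.08949 and 0.1287, limma). Leaving out 1 library, cK15 replicate 3 of 8 am or of 4 pm or control replicate 4 of 4 am, gave adjusted p of 0.05073, 0.05085 and 0.05038. In the 24 libraries outside the set of 12 the adjusted p was 0.07357. Ndufab1 has 2 near-identical copies in the genome annotation (Gm4459 and Ndufab1-ps, up to 99.8% identity over the aligned stretch), which are not among the entries, so how reads were shared with them is not known.

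Ndufaf7, an assembly factor with methyltransferase activity, reached 17.1, 18.9 and 22.1 FPKM in cK15 hearts (lowest, median and highest) and 13.6, 17.4 and 20.2 FPKM in control hearts. The groups overlapped, with 16 of 18 cK15 libraries above the control median. The averaged log2 fold change was 0.15 (SE 0.041, adjusted p = 0.01751, limma). After every library was rescaled to the same sum, the adjusted p was 0.1338. It was 0.06128 without cK15 replicate 4, 0.1847 without control replicate 3 and 0.06308 without control replicate 4. Outside the set of 12 the log2 fold change was 0.18 (adjusted p = 0.01892). Ndufaf7 was also the one member called at a single time. At 8 am it read 18.9, 19.3 and 22.1 FPKM in cK15 hearts and 13.7, 13.6 and 16.4 FPKM in control hearts, with no overlap, and the log2 fold change was 0.44 (SE 0.10, adjusted p = 0.0191, limma). Leaving out cK15 replicate 4 or control replicate 2 or 3 at 8 am gave adjusted p of 0.1818, 0.1264 and 0.141. The call at 8 am was also lost after rescaling to the same sum (adjusted p = 0.2705) and in the 24 libraries outside the set of 12 (log2 fold change 0.44, adjusted p = 0.09216, limma). Whether its genotype difference varied with time was tested directly and did not pass the threshold (unadjusted p = 0.08156, adjusted p = 1, limma).

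Ndufs3, a core subunit of the Q module, reached 780, 879 and 985 FPKM in cK15 hearts (lowest, median and highest) and 682, 817 and 921 FPKM in control hearts, and the ranges overlapped widely. The mean was 869 ± 61.2 FPKM in cK15 and 802 ± 59.1 FPKM in control hearts, a log2 fold change of 0.11 (SE 0.037, adjusted p = 0.04006, limma). This call was close to the threshold: it was lost in 23 of 53 alternative settings, among them 15 of the 36 that left out 1 library, and it stood at an adjusted p of 0.0696 outside the set of 12. It has a near-identical copy, Gm12251 (98.6% identity), that is not among the entries, and its exons overlap those of Kbtbd4 on the opposite strand by 88 bases.

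**Figure D3:**
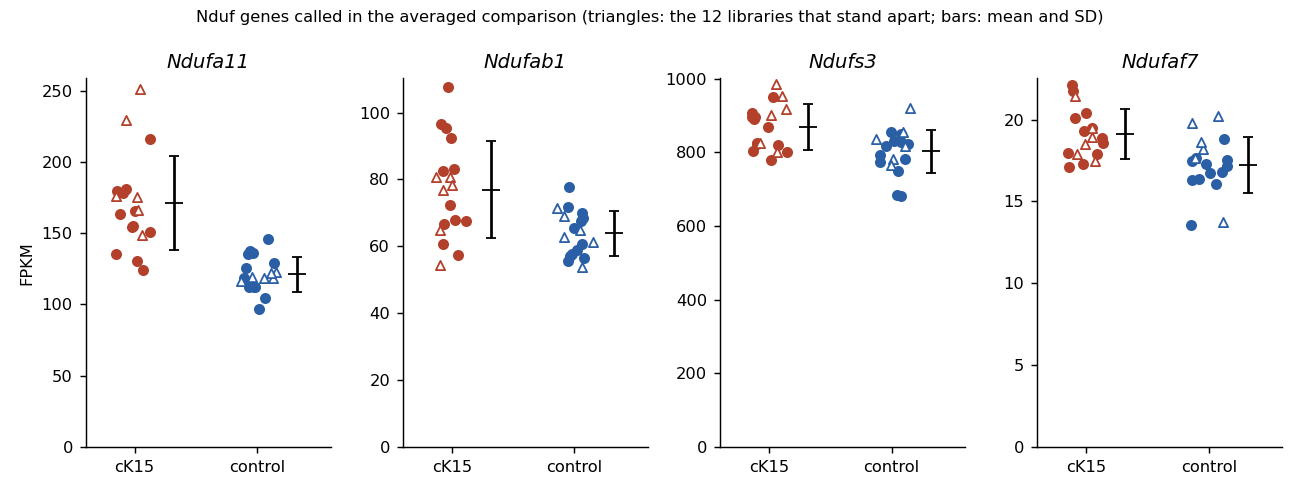
FPKM of the 4 Nduf genes called in the averaged comparison in each of 18 cK15 (left, red) and 18 control (right, blue) libraries, on axes that start at 0; triangles mark the 12 libraries with a low share of the 10 most abundant genes, and bars give mean and SD. Only Ndufa11 has most cK15 libraries (15 of 18) above the highest control library.

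The other 41 genes did not pass the test. Their log2 fold changes lay between −0.12 and 0.16, and their 95% intervals within −0.27 to 0.41. Over all 45 genes, 42 intervals lay within ±0.3, and the median half-width was 0.11. Closest to the threshold were 2 genes named after their values were seen. Ndufa10, a proximal arm subunit of the nucleoside kinase family, averaged 1320 ± 117 FPKM in cK15 and 1208 ± 85.1 FPKM in control hearts, a log2 fold change of 0.12 (adjusted p = 0.06288, limma). Ndufb7, a distal arm subunit, averaged 624 ± 73.1 FPKM in cK15 and 560 ± 46.5 FPKM in control hearts, a log2 fold change of 0.15 (adjusted p = 0.07675, limma). Both passed in the 24 libraries outside the set of 12, with log2 fold changes of 0.15 and 0.17 (adjusted p = 0.001967 and 0.01885, limma). With each replicate series as a random block neither passed (adjusted p = 0.4067 and 0.3319, limma). Of 53 alternative settings, Ndufa10 passed in 12 and Ndufb7 in 10. At the other end were Ndufa4l2 with −0.12 (adjusted p = 0.3665), Ndufa3 with −0.10 (adjusted p = 0.1818) and Ndufb2, a distal arm subunit, with −0.061 (adjusted p = 0.7351). Ndufaf2, an assembly factor related in sequence to Ndufa12, had a log2 fold change of 0.16 with a wide error (SE 0.12, adjusted p = 0.4979), and without control replicate 2 the value was −0.0088.

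By place in the complex, 5 of 8 N module genes had a fold change above 0, with a median log2 fold change of 0.051 and none called. In the Q module it was 7 of 8, with a median of 0.056 and 1 called (Ndufs3). In the proximal membrane arm it was 8 of 9, with a median of 0.086 and 1 called (Ndufa11). In the distal arm it was 9 of 10, with a median of 0.038 and none called. Of the 7 Nduf assembly factors 5 were above 0, with a median of 0.073 and 1 called (Ndufaf7). The NADH-binding subunit Ndufv1 had a log2 fold change of −0.021 and was not called.

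Genes that work beside complex I were set next to these, from lists chosen with earlier results of these data known; over all genes, 4.06% were called higher and 7.18% lower. Of 14 further assembly factors and partners of complex I, 3 rose and none fell, with a median log2 fold change of 0.066. These were Sirt3 with 0.25 (SE 0.044, adjusted p = 0.0002387, limma), Timmdc1 with 0.16 and Dnajc11 with 0.15. Sirt3 is a mitochondrial deacetylase and not itself an assembly factor, and it averaged 36.1 ± 2.76 FPKM in cK15 and 30.4 ± 3.66 FPKM in control hearts. Of 46 genes of complexes II to V, 2 rose and 2 fell, with a median of 0.042: the complex III core subunit Uqcrc1 rose by 0.097 and the ATP synthase subunit c gene Atp5g3 by 0.20, while the complex IV isoforms Cox6a2 and Cox6b2 fell by 0.83 and 1.30 on the log2 scale. Cox6b2 was listed at 0 in 8 cK15 libraries and in 1 control library. Of 76 mitochondrial ribosomal protein genes, 5 rose and 2 fell, with a median of 0.063; the smallest adjusted p were those of Mrps23 (0.27), Mrpl3 (0.14), Mrpl55 (−0.46) and Mrps18a (0.24). Of 10 regulators of mitochondrial genes, the coactivator Ppargc1a alone was called, with 0.14. With the replicate number as a block, 2 of these 15 calls were lost, those of Dnajc11 (adjusted p = 0.09186) and Ppargc1a (adjusted p = 0.1032), and with the random block 11 were lost, while Sirt3, Cox6a2, Cox6b2 and Mrps23 passed (limma).

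Markers of other cells moved as well, to be read against the 4.06% of all genes called higher and 7.18% called lower. Of 8 heart muscle cell markers 2 rose, with a median log2 fold change of 0.078 and sums of 51920 to 115027 FPKM in cK15 and 53872 to 104216 FPKM in control libraries. Of 6 fibroblast markers 5 fell, with sums of 1173 to 1544 FPKM in cK15 and 1384 to 1748 FPKM in control libraries. Of 8 macrophage markers 7 fell, with sums of 153 to 245 FPKM in cK15 and 173 to 268 FPKM in control libraries. Of 7 endothelial markers none was called, but 6 lay below 0, with a median log2 fold change of −0.097. At an unadjusted p under 0.05 there were 5 of the 7 (limma), against 23.2% of all genes. Of 5 smooth muscle markers, 3 atrial markers and 4 nuclear-retained RNAs, 1 each fell. With the replicate number as a block 2 of these 17 calls were lost, those of the heart muscle marker Ryr2 and the atrial marker Myl7, and with the random block 15 were lost. No lymphocyte or adipocyte marker passed the filter, and the adipocyte markers summed to 0 to 0.999 FPKM in cK15 and 0 to 3.53 FPKM in control libraries. The part of these shifts in the small upward displacement of the Nduf genes was not tested.

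At single times the genotypes were compared with 3 libraries against 3. Apart from Ndufaf7 at 8 am, no Nduf gene was called at any of the 6 times, against 1.21%, 1.12%, 1.06%, 0.745%, 1.3% and 1.12% of all genes from 12 am to 8 pm. At an unadjusted p under 0.05 (limma) there were 1, 1, 4, 1, 1 and 3 of the 45 members. Over the 10599 genes tested there were 767, 831, 792, 615, 893 and 813. The number with a fold change above 0 was 29, 37, 35, 34, 24 and 38 of 45 from 12 am to 8 pm, and the median log2 fold change was 0.023, 0.069, 0.070, 0.064, 0.010 and 0.12. Of the 10599 genes tested, 4529, 5176, 4910, 5153, 5113 and 5460 were above 0. Their medians were −0.029, −0.0049, −0.015, −0.0050, −0.0076 and 0.0060. The members' median was thus smallest at 4 pm and largest at 8 pm, when the median of all genes was also highest. A difference between these times was not tested for the list.

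The second question was whether the genes followed the time of day, which was tested within each genotype by a cosine curve of 24 h. No Nduf gene was rhythmic in cK15 hearts, against 1.08% of all genes, and none in control hearts, against 2.8% of all genes (limma, adjusted p under 0.05). At an unadjusted p under 0.05 the counts were 0 of 45 in cK15 hearts, against 8.95% of all genes, and 3 of 45 in control hearts, against 14% of all genes. By a test for any difference between the 6 times, none of the 45 was called in cK15 hearts (0.396% of all genes), none in control hearts (1.35%) and none for the difference between genotypes (0.00943%). The median amplitude, the log2 distance between the curve's mean and its peak, was 0.053 for the Nduf genes in cK15 and 0.052 in control hearts, compared with 0.084 over all genes in cK15 and 0.092 in control hearts. A fitted amplitude is never negative and also grows with the spread between libraries. The median SD within groups on the log2 scale was 0.168 for the Nduf genes and 0.222 over all genes. The part of this spread in the smaller amplitude was not tested. The difference in rhythm between the genotypes was called for none of the 45 and for 0 of all genes (0%), with 2.75% of all genes at an unadjusted p under 0.05.

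The 3 genes at an unadjusted p under 0.05 in control hearts were Ndufaf6, Ndufs1 and Ndufv1, named here after their values were seen. Ndufaf6, an assembly factor, had group means of 38.2, 37.8, 34.0, 34.2, 31.5 and 34.5 FPKM from 12 am to 8 pm in cK15 hearts and of 38.0, 38.4, 32.8, 31.7, 32.1 and 38.3 FPKM in control hearts. Its level was highest around midnight, with a fitted amplitude of 0.12 in cK15 and 0.16 in control hearts (SE 0.043 and adjusted p = 0.0987 in control, limma). Ndufs1, the largest subunit of the peripheral arm and a carrier of iron-sulfur clusters, had means of 931, 962, 859, 875, 913 and 939 FPKM in cK15 hearts and of 962, 904, 819, 838, 895 and 909 FPKM in control hearts. Its amplitude was 0.066 in cK15 and 0.10 in control hearts (adjusted p = 0.191 in control, limma), and Ndufv1, which carries the NADH site, had 0.091 in cK15 and 0.10 in control hearts (adjusted p = 0.212 in control, limma). With the replicate number as a block, Ndufaf6 passed in control hearts (adjusted p = 0.03787), where 4.43% of all genes passed. With the set of 12 libraries as a covariate, all 3 passed in control hearts: Ndufs1 at 0.02526, Ndufaf6 at 0.03971 and Ndufv1 at 0.03991, in a fit that called 6.89% of all genes.

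**Figure D4:**
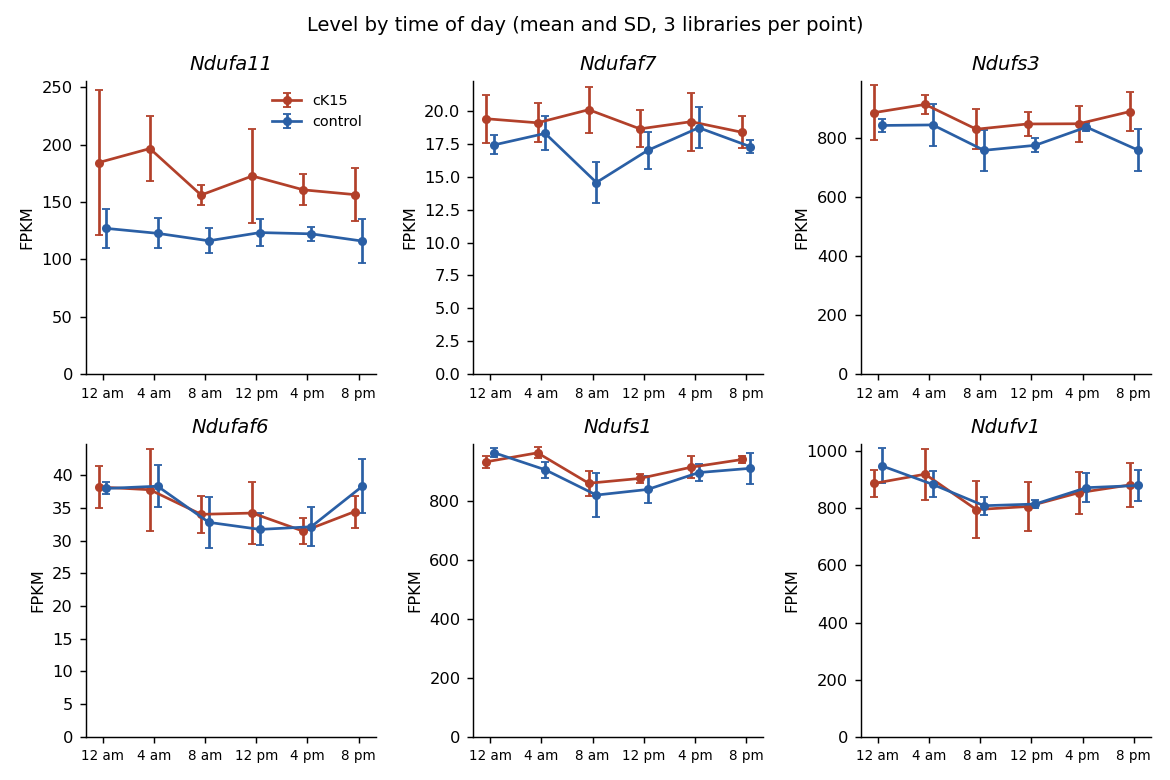
Mean FPKM and SD of 3 libraries at each of 6 times in cK15 (red) and control (blue) hearts, on axes that start at 0. Ndufa11 is higher in cK15 hearts at 6 of 6 times, Ndufaf7 is apart at 8 am, and Ndufaf6, Ndufs1 and Ndufv1 were lower around midday than around midnight without passing the test for rhythm.

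The largest differences among the Nduf genes were not between genotypes but between libraries of the same group. In each of the 12 groups, the 1 library of the set of 12 was compared with the mean of the other 2. Of the 45 genes, 13 were lower in the set library in 12 of 12 groups (28.9%, against 8.60% of all genes), 5 were higher in 12 of 12 (11.1%, against 17.5% of all genes), and 27 were mixed. The mean differences on the log2 scale spanned −0.64 to 0.38, a wider range than the −0.12 to 0.48 between genotypes. Lowest in the set were Ndufb10 (−0.64 ± 0.12, SD over 12 groups), Ndufaf2 (−0.53 ± 0.22), Ndufs6 (−0.42 ± 0.12), Ndufv3 (−0.36 ± 0.12) and Ndufb9 (−0.32 ± 0.12). Highest were Ndufv2 (0.38 ± 0.11), Ndufb2 (0.36 ± 0.11) and Ndufb6 (0.32 ± 0.099). Genes of both directions occurred within a place: Ndufv2 and Ndufv3 belong to the N module, and Ndufb2 and Ndufb10 to the distal arm. Ndufa11 did not follow the set, with a difference of 0.11 ± 0.25 and 6 groups in each direction.

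**Figure D5:**
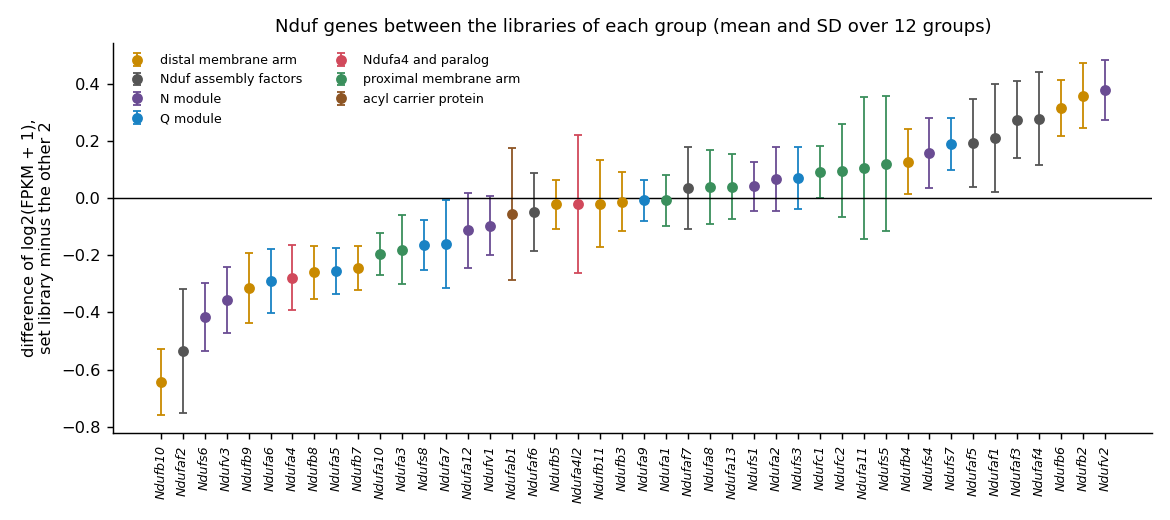
Difference in log2(FPKM + 1) between the library of the set of 12 and the mean of the other 2 libraries of its group, as mean and SD over 12 groups, for the Nduf genes reported by name, coloured by place in the complex. The points run from −0.64 (Ndufb10) to 0.38 (Ndufv2), and genes of the same place lie at both ends.

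As a description across the 45 genes, which share the same libraries, the set difference had a Pearson correlation of −0.299 with the GC content of the transcript, 0.348 with its length and −0.365 with the mean level. The heart muscle cell markers were lower in the set as well, 8 of 8 with a median difference of −0.60; since 3 to 5 of these 8 were among the 10 most abundant genes of each library, whose share defined the set, this is partly given by the choice of the libraries. The Nduf share of summed FPKM was slightly higher in the set, with a median of 6.55% (6.34 to 6.71%). In the other 24 libraries the median was 6.35% (6.03 to 6.57%). The sum of the Nduf FPKM itself was lower in the set, with medians of 37429 FPKM in the set and 40312 FPKM in the other 24. The part of GC content, length or cell makeup in the set difference was not tested.

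Several values could depend on how reads were assigned between overlapping or similar genes. The exons of 19 of the 45 genes overlap those of another annotated gene, and the use of strand in the counting is not stated in those sources. Besides Ndufab1 and Ndufs3, near-identical copies exist for Ndufa12, Ndufb11, Ndufb4 and Ndufs5. That of Ndufs5, BC002163 (99.4% identity), was the one listed in the tables: it stood at 5.60 to 14.0 FPKM in 3 control libraries and at no more than 0.0564 FPKM in the other 33. Ndufs5, a proximal arm subunit, averaged 70.1 ± 8.46 FPKM in cK15 and 65.1 ± 9.46 FPKM in control hearts, a log2 fold change of 0.11 (adjusted p = 0.3269, limma).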

How the data were processed

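RNA of 36 heart apex samples was depleted of ribosomal RNA (Ribo-Zero, from 1 ug), made into stranded total RNA libraries and sequenced as 100 bp pairs, per the labels' protocols. The authors deposited FPKM for each gene and library in a table per genotype. GSNAP, HTSeq and build mm10 are named, per the submitters' processing notes; the sources used here do not give their roles and versions, the annotation or the FPKM program. No whole-read step was found in the low values, so depth is unknown and no counting interval is given. The 2 tables were compared as deposited. Symbols turned into dates or repeated (27) were tested but not named. Counts cover all 45 members; 1 of them is not reported here by name.

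From these FPKM, limma 3.58.1 in R 4.3.3 was run on log2(FPKM + 1), with a filter that kept the 10599 genes whose FPKM averaged 1 or more over all libraries, with trended and robust variance moderation and Benjamini-Hochberg adjustment over all of them. The threshold was an adjusted p of 0.05, two-sided. Fold changes are cK15 over control and understate changes at low FPKM. The genotype contrast used 12 group means, averaged over times and time by time. Rhythm used a cosine and a sine of 24 h. Whether a group's libraries stem from separate animals is not stated in the labels; p-values therefore measure only a spread between libraries that may be technical. Same-numbered libraries of the genotypes (numbers 3 and 4) deviated together from their group means (r = 0.157 to 0.508, 12 of 12 pairs over 0.1). Number 3 against 4 gave −0.275 to 0.153, with 6 of 12 over 0.1. The values 0.157, 0.508 and −0.275 came from 8 pm, where number 4 of both genotypes belonged to the set of 12. At the other times the set held number 1 of cK15 and number 2 of control hearts. There, same numbers gave 0.196 to 0.313 and crossed ones 0.0016 to 0.153. The numbers were therefore taken as pairing, and the block fits are given where they change a count. With the number as a block, the averaged contrast rests on numbers 3 and 4, which both genotypes have. The fits were tested on simulated data in which libraries varied independently. That simulation held neither the set of 12 nor shared deviations of same-numbered libraries, so it cannot show how the fits behave under them.

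Positions, exon overlaps and transcripts came from GENCODE M21 (GRCm38, equal to mm10), copies from BLAST 2.17.0 (at least 95% identity over 300 bases, or over 0.5 of the length in shorter transcripts), and upstream sequences from RefSeq. The members and lists were chosen with earlier results of these data known. Named with values were the called members, the 3 highest and 3 lowest fold changes, the 3 highest and 3 lowest levels, and up to 4 called genes per neighbouring list. Alternatives changed the pseudocount, filter, scaling, moderation, library set, replicate block and libraries.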

Additional observations from a re-analysis of the deposited data

How the results depend on the processing

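Among the 53 alternatives was a change of the rhythm test, which leaves the averaged comparison as it was. Of the 53, 50 kept the number of all genes called in that comparison within 1.5 times of 1191. With the library set as a covariate it was 2168 and with each replicate series as a random block 346. Leaving out replicates or single libraries gave 757 (without control replicate 3) to 1268. The split of all calls was 430 higher and 761 lower as deposited, 565 and 658 after median-ratio rescaling, 272 and 652 after rescaling to the same sum, and 635 and 605 after quantile normalization. The number of Nduf genes called, 4, became 7 with quantile normalization, 10 with the library set as a covariate, 7 with the replicate number as a block and 1 with the random block. It ranged from 1 to 6 when libraries were left out. It was 1 (2.22%) without control replicate 3 or 4 at all times, against 7.14% and 7.8% of all genes. It was 2 (4.44%) without cK15 replicate 3 of 8 am or control replicate 4 of 4 am, against 10.4% and 10.5%. It was 5 (11.1%) without cK15 replicate 1 or 3 at all times, against 12% and 11.1%. It was 6 (13.3%) without cK15 replicate 1 of 4 am, 8 am or 12 pm, against 10.9%, 11.3% and 11.1%. The split of these calls was 4 higher and 0 lower after median-ratio rescaling, 4 and 1 after rescaling to the same sum and 6 and 1 after quantile normalization, the lower one being Ndufa3 both times, and 34 to 37 members were above 0 in these 3. Without cK15 replicate 3, 25 members were above 0, and 2 were called higher and 3 lower.

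Rhythmic Nduf genes in control hearts, 0, became 3 with the library set as a covariate and 1 with the replicate block. Their number stayed at 0 in cK15 hearts and for the rhythm difference in 17 alternatives each. The 1 call at a single time became 2 with median-ratio rescaling, 0 after rescaling to the same sum, 2 with quantile normalization, 3 with the library set as a covariate and 0 in the 24 libraries outside the set, with 0 to 3 when libraries were left out. The sign reversed for 4 uncalled genes: Ndufaf2 to −0.0088 and Ndufb2 to 0.045 without control replicate 2, Ndufb2 to 0.0068 without cK15 replicate 4, Ndufb8 to −0.038 without cK15 replicate 3, and Ndufaf4 to −0.017 without cK15 replicate 1. The highest or lowest values of these genes with replicates left out were 0.37 (Ndufaf2), −0.16 (Ndufb2), 0.17 (Ndufb8) and 0.13 (Ndufaf4). The cause was not tested for any of these. Depth is unknown, so the spread between libraries is the only measure of precision.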
